A study of Mus musculus with 24 samples.

Results

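The hippocampus of 5xFAD mice was compared with that of wild-type mice by RNA sequencing, with every 5xFAD library taken as a single group of 8 against 4 wild-type libraries. 5xFAD is a transgenic model of the amyloid pathology of Alzheimer's disease: neurons express human transgenes with familial mutations, APP among them, under the mouse Thy1 promoter. The 12 libraries are the input fractions of a series of 24, whose other 12 libraries are m6A immunoprecipitates and were not analysed here. They were chosen by genotype and fraction alone, with no measured value. The 8 comprise 4 biological replicates of 5xFAD given vehicle and 4 of 5xFAD given MS1262, an inhibitor of the histone methyltransferase G9a, which Ehmt2 encodes. The 4 wild-type replicates are labelled as given no treatment and described as age matched. Since none of them is labelled as given vehicle, the transgenes and the dosing cannot be told apart in this comparison. The labels name no age, sex or background strain. A difference of strain and the transgenes therefore cannot be told apart either, for rises and falls alike.

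As background, amyloid in the brain is met by microglia, the resident macrophages, which take up a disease-associated state marked by lysosomal, lipid-handling and antigen-presenting genes, and by astrocytes, which raise intermediate filaments such as GFAP. Oligodendrocytes, which make myelin, also take on an immune-like state near plaques. Neurons of the hippocampus are mostly excitatory pyramidal and granule cells, with a minority of GABAergic interneurons that are told apart by peptides such as somatostatin. Neurons rest on oxidative metabolism and on cholesterol made largely by glia. The question that the 8 against 4 comparison serves is which smaller differences of genotype, in these neuronal and metabolic genes, exceed the spread between libraries.

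The libraries held 20.7 to 43.2 M estimated counts. In the library 5xFAD vehicle 3, Ttr, the thyroxine carrier made by choroid plexus, stood at 7045 CPM (counts scaled to the size of the library), and in wild-type 3 at 748 CPM, against 30.3 to 159 CPM in the other 10. The 12 choroid plexus markers, of which 10 were tested, summed to 7968 CPM in 5xFAD vehicle 3, to 895 CPM in wild-type 3 and to at most 236 CPM in the others. Xist, the RNA of the inactive X chromosome in females, was at 1.29 CPM in 5xFAD vehicle 3 and at 21.5 to 48.2 CPM in the other 11. All genes of the table that RefSeq places on the Y chromosome summed to at most 5 counts in any library.

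Of 17693 genes tested, 441 differed between the genotypes at a Benjamini-Hochberg adjusted p below 0.05 in edgeR's quasi-likelihood test (called genes, 2.49% of those tested). The calls comprised 283 genes higher in 5xFAD (1.6%) and 158 lower (0.893%). At an unadjusted p below 0.05 stood 2686 of the 17693 genes in edgeR. DESeq2 called 4.98% of the genes it tested. At 2-fold or more stood 156 of the higher genes and 28 of the lower ones, so that 257 called genes moved by less than 2-fold, 127 upward and 130 downward. The smallest called change was 0.27 on the log2 scale. Over all tested genes 9159 of the 17693 log2 changes were positive. Genes of a list are measured in the same libraries, so a count of signs is not a count of independent results. In 315 of the called genes the 8 5xFAD libraries lay wholly above or below the 4 wild-type ones; over all tested genes, called or not, 549 did so (3.1%). The split between directions depended on the scale: limma on log2(TPM + 1) called 129 higher and 321 lower, and on log2(TPM + 0.1) 152 higher and 313 lower, with the median of all genes at -0.06 and -0.09 in place of 0.01. On that scale the mitochondrially encoded genes took 39.9 ± 2.01% of the total in wild-type (SD, n = 4) and 45.9 ± 2.20% in 5xFAD (n = 8); their part in the shift of the median was not tested.

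**Figure D1:**
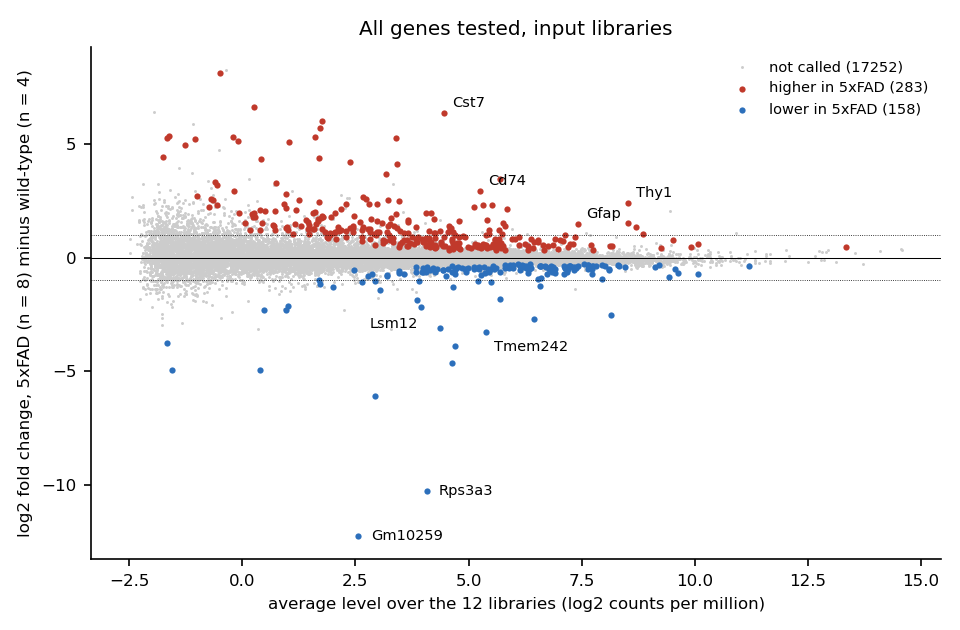
Average level (log2 CPM, horizontal axis) against log2 fold change of 5xFAD over wild-type (vertical axis) for the 17693 genes tested, with the 283 called higher in red, the 158 called lower in blue and the rest in grey; dotted lines mark 2-fold. Called rises reach log2 6.37 for Cst7, and most called falls lie within 2-fold, apart from pseudogenes such as Gm10259 and a few genes such as Tmem242.

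Leaving out each library in turn gave 227 to 571 called genes, the lowest count without wild-type 3 and the highest without 5xFAD vehicle 4. Every omission of a wild-type library gave at most 284. A set of 164 genes, 116 higher and 48 lower, was called in all 12 omissions. Without both high-Ttr libraries 364 genes were called, of which 284 were among the 441.

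**Figure D2:**
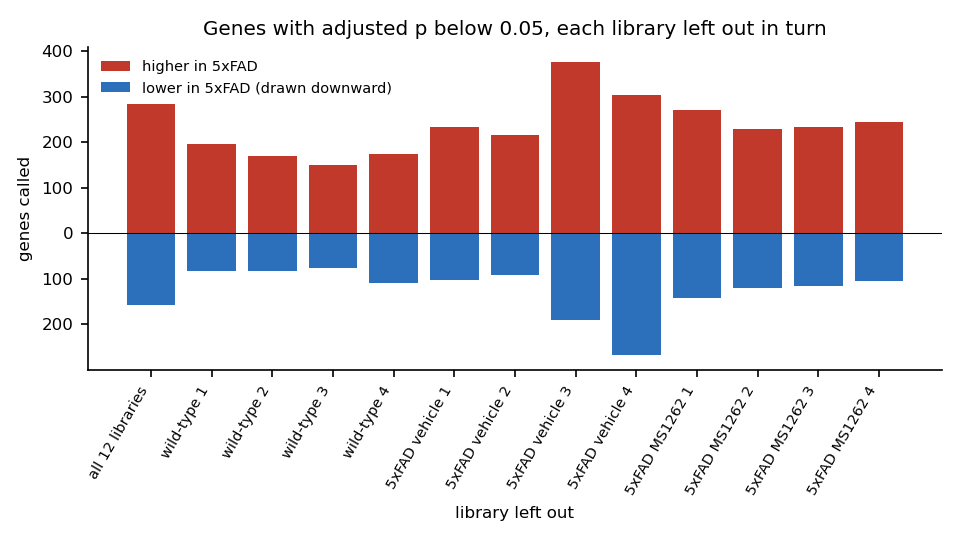
Number of genes called with all 12 libraries (left bar) and with each library left out, drawn upward for genes higher in 5xFAD and downward for genes lower. The bars run from 227 calls without wild-type 3 to 571 without 5xFAD vehicle 4.

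The genes tied to the model were looked at first. Thy1, whose promoter drives the transgenes, was at 88.7, 89.4, 107 and 99.5 CPM in the wild-type libraries and at 273 CPM in the lowest, 505 CPM in the median and 746 CPM in the highest 5xFAD library. The groups did not overlap, and the log2 fold change was 2.39 ± 0.20 (SE; adjusted p = 2.51e-05), or 5.23-fold. Gene-level counts do not separate the endogenous Thy1 transcript from transgene sequence. Mouse App (600.2 ± 65.4 CPM in wild-type, SD, n = 4, against 594 ± 57.0, n = 8) had a log2 fold change of -0.01 ± 0.09 (adjusted p = 0.965). Ehmt2, the target of MS1262, was at 8.67 ± 0.96 CPM in wild-type and 10.1 ± 1.71 CPM in 5xFAD (log2 0.21 ± 0.15, adjusted p = 0.543).

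The amyloid list held 21 tested genes: Thy1, included for its promoter in the transgenes, and genes of amyloid production and clearance. Apart from Thy1 1 gene was called, Bace1, the beta-secretase that makes the first cut of APP, and none fell. Bace1 was at 92.7, 85.5, 81.6 and 90.2 CPM in wild-type and at 102, 110.0 and 114 CPM in the lowest, median and highest 5xFAD library, a log2 change of 0.32 ± 0.06 (adjusted p = 0.0144). The groups did not overlap, but the call was lost without wild-type 2 or wild-type 3, with an adjusted p of up to 0.0611, and on the TPM scale. None of the 21 genes of H3K9 methylation and none of the 20 genes of m6A writing, erasing and reading was called by edgeR or DESeq2. Of these, 5 and 1 were at an unadjusted p below 0.05 in edgeR, beside 2686 of all 17693 tested genes. Calls over all tested genes were 2.49% in edgeR and 4.98% in DESeq2.

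The large rises named first are the 8 largest among called genes with a mean level of at least 1 on the log2 CPM scale, no overlap and a call in every omission. Cst7, an inhibitor of cathepsins, went from 0.376 ± 0.13 CPM (SD, n = 4) to 32.8 ± 17.1 CPM (n = 8), a log2 change of 6.37 ± 0.56 (adjusted p = 1.95e-05). Ctse, a cathepsin of endosomes, had a log2 change of 5.28, Clec7a, a receptor for fungal glucans, 3.69, Ccl6, a chemokine, 3.45, and Cd74, the invariant chain of MHC class II, 2.94. In each of these 5 genes the lowest 5xFAD library, which was 5xFAD vehicle 3, still exceeded the highest wild-type one. Cd52 (log2 2.68), Hjurp, a chaperone of the centromeric histone (2.54), and the complement receptor C3ar1 (2.49) completed the 8. Itgax, an integrin of phagocytes, was near 0 in wild-type, at 0 to 0.115 CPM, and at 0.981, 4.87 and 9.07 CPM in the lowest, median and highest 5xFAD library.

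Most of the immune lists moved upward, against 1.6% of all genes called higher. The lists were chosen with earlier results of these data known, so this share is a background and not a test. They also share members, so their counts are not independent results. Itgax is in the complement and disease-associated microglia lists, and Ctsd in the latter and the lysosomal list. C4b and B2m are in the disease oligodendrocyte list and also in the complement and MHC lists. Cxcl10 is in the reactive astrocyte and interferon lists. In the disease-associated microglia list 21 of 30 tested genes rose and none fell, 18 of them called in every omission; the median log2 change was 1.60. In the homeostatic microglia list 8 of 16 rose, with a median of 0.80. Cx3cr1, the fractalkine receptor, was at 14.3 to 17.4 CPM in wild-type and at 19.9, 31.2 and 37.9 CPM in the lowest, median and highest 5xFAD library, without overlap (log2 0.98 ± 0.14, adjusted p = 0.00188). Fewer cells of a type and less RNA per cell cannot be told apart in such bulk tissue, and the same holds for more of either. Of the 16 complement genes 8 rose, of the 16 MHC genes 5 and of the 22 interferon-stimulated genes 3. The counts were 5 homeostatic and 4 complement genes without wild-type 3 or wild-type 4. The MHC count was 2 without wild-type 2 and 3 without wild-type 1 or wild-type 3. The interferon count was 0 without wild-type 2 or 3, 1 without wild-type 1 or 4, and 5 without 5xFAD vehicle 3.

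Of 31 tested lysosomal genes 12 were called higher and none lower, 11 of the 12 in every omission, and 19 did not pass. The median log2 change was 0.37, and 28 of 31 were above 0. Ctsd, the main aspartic protease of the lysosome, was at 185, 252, 184 and 187 CPM in wild-type and at 384, 493 and 715 CPM in the lowest, median and highest 5xFAD library. Its groups did not overlap (log2 1.36 ± 0.14, adjusted p = 0.000169). Grn, which encodes progranulin, went from 24.9 ± 2.14 to 50.0 ± 9.81 CPM (log2 1.00 ± 0.14, adjusted p = 0.00188). Man2b1, an alpha-mannosidase, and Gusb, the beta-glucuronidase, had log2 changes of 0.95 and 0.93, and the call of Gusb was lost without wild-type 2, 3 or 4. The cysteine proteases Ctss, Ctsz and Ctsh had log2 changes of 1.53, 1.52 and 1.24. Ctsa, the protective protein of the lysosomal galactosidase complex, went from 95.2 ± 17.8 to 158 ± 21.5 CPM (log2 0.73 ± 0.12, adjusted p = 0.00491).

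Promoters of lysosomal genes often carry the E-box letters CACGTG, the core of the sites bound by TFEB and its relatives. In the 250 bases before the start of each gene in RefSeq's table of GRCm38.p6, with both strands searched (the letters are their own reverse complement), the motif was present in 6.86% of 27025 genes. It was present in 10 of the 25 tested lysosomal genes that the table holds, and in 2 of the 8 of these that were called higher. Those 2, the members of the rising group whose windows hold it, are shown with the matches in capitals; Ctsd lies on the minus strand at chr7:142387828-142388077 and the second of the 2 windows of Ctsa on the plus strand at chr2:164833523-164833772. The match describes the letters only.
Ctsd: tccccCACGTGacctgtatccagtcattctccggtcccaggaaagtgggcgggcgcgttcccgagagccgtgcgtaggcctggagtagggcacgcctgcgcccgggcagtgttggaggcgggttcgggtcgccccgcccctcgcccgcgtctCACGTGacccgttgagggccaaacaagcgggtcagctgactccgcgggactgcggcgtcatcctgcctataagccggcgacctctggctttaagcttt
Ctsa: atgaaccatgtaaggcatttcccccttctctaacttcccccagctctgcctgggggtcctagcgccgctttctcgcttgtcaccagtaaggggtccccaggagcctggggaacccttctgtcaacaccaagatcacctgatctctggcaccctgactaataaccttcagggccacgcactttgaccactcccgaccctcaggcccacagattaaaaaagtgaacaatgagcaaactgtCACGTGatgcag

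Astrocyte genes were described in a reactive and a homeostatic list. In the reactive astrocyte list 5 of 23 tested genes rose, beside 1.6% of all tested genes called higher, and none fell. At an unadjusted p below 0.05 stood 13, all higher, beside 2686 of 17693 genes, and DESeq2 called 10, beside 4.98%. The median log2 change was 0.80. The median was 0.621 to 0.863 over omissions and 0.297 on the log2(TPM + 1) scale, where 3 genes were called. By arm it was 0.698 with vehicle and 0.596 with MS1262, against the same wild-type libraries, with 3 genes called in each. Gfap, the intermediate filament that marks reactive astrocytes, was at 126, 72.7, 42.5 and 68.2 CPM in wild-type and at 116, 200.0 and 372 CPM in the lowest, median and highest 5xFAD library. The lowest 5xFAD library thus lay below the highest wild-type one. The log2 change was 1.49 ± 0.29 (adjusted p = 0.0176), and the call was lost without wild-type 2, 3 or 4, with an adjusted p of up to 0.0664.

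Osmr, a receptor for oncostatin M, had no such overlap: 3.35, 4.5, 3.42 and 3.87 CPM in wild-type against 5.3, 11.7 and 20.6 CPM in the lowest, median and highest 5xFAD library. Its log2 change of 1.73 ± 0.25 (adjusted p = 0.00275) was called in all 12 omissions. Ggta1, which adds galactose to glycans, rose by 1.27 ± 0.26 on the log2 scale without overlap, a call lost without wild-type 1 or 3 (adjusted p up to 0.0821). Cxcl10, an interferon-induced chemokine, was low in both groups, at 0.151 ± 0.049 against 0.725 ± 0.341 CPM, and its call was lost without any 1 of the 4 wild-type libraries (adjusted p up to 0.0721). The fifth was Vim (log2 0.81 ± 0.18, adjusted p = 0.0324), the filament vimentin, lost without wild-type 2, 3 or 4, 5xFAD vehicle 2 or 5xFAD MS1262 3 (adjusted p up to 0.131). The number of reactive genes called was 2 without wild-type 3 or 4, 3 without wild-type 1 or 2, and 7 without 5xFAD vehicle 3.

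In the homeostatic astrocyte list 18 of 23 tested genes had a positive log2 change, beside 9159 of all 17693, with a median of 0.17. Called was 1 of the 23, beside 2.49% of all tested genes, and this single call is a value of that gene and not of the list. The count was 3 without 5xFAD vehicle 3, 2 without 5xFAD vehicle 4 or wild-type 1, 0 without wild-type 2, 3 or 4 and 4 in DESeq2, and the median 0.13 to 0.219 over omissions and 0.0626 on the log2(TPM + 1) scale. Aqp4, the water channel of astrocyte end-feet, was at 243, 229, 181 and 220.0 CPM in wild-type and at 254, 313 and 389 CPM in the lowest, median and highest 5xFAD library. All 8 5xFAD libraries were above all 4 wild-type ones, by a log2 change of 0.52 ± 0.11 (adjusted p = 0.0205). The call was lost without wild-type 2, 3 or 4 (adjusted p up to 0.0817) and on the TPM scale, where no gene of the list was called. The list's summed level overlapped between genotypes, at 9560 to 12100 CPM in wild-type and 9947 to 14310 CPM in 5xFAD.

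**Figure D3:**
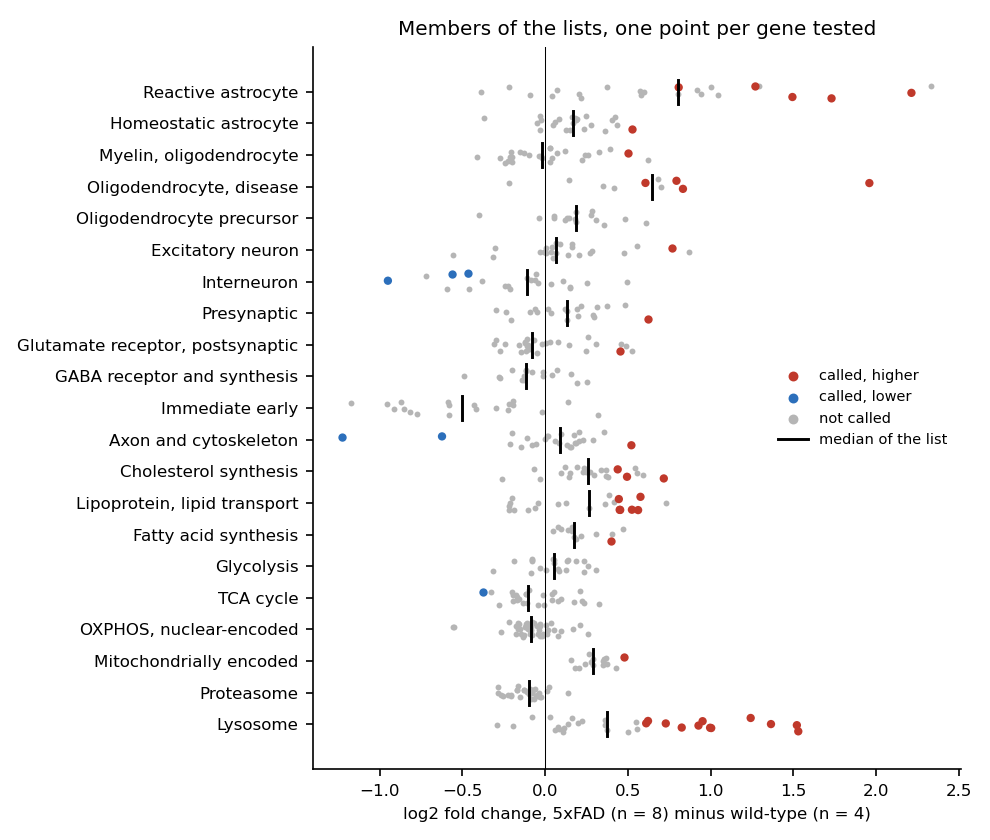
Log2 fold change of 5xFAD over wild-type (horizontal axis) for each tested member of 21 gene lists, 1 point per gene, red where called higher, blue where called lower and grey where not called; black ticks are the medians. The reactive astrocyte, disease oligodendrocyte and lysosomal lists lie to the right with medians of 0.80, 0.64 and 0.37, the mitochondrially encoded genes all lie above 0, and the immediate early genes have a median of -0.51 with none called; that median was -0.167 without wild-type 3, and the reactive astrocyte median was 0.297 on the log2(TPM + 1) scale.

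Oligodendrocyte genes were described in a myelin, a disease-linked and a precursor list. Of the 27 tested genes of myelin and mature oligodendrocytes 1 was called, beside 2.49% of all tested genes, and the median log2 change was -0.02. This single call is a value of that gene and not of the list. Mbp, a main protein of central myelin, had a log2 change of 0.04. The summed level of the list was 7689 ± 1130 CPM in wild-type (SD, n = 4) and 7689 ± 1060 CPM in 5xFAD (n = 8). The called gene was Cryab, a small heat shock protein abundant in these cells, at 261, 228, 179 and 239.5 CPM in wild-type and 278, 324 and 376 CPM in the lowest, median and highest 5xFAD library. It rose without overlap (log2 0.50 ± 0.10, adjusted p = 0.0204), a call lost without wild-type 2, 3 or 4 (adjusted p up to 0.0642) and on the TPM scale.

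Among 10 genes linked to disease-associated oligodendrocytes 4 rose and none fell, beside 1.6% of all tested genes called higher. C4b is counted in the complement list as well, and B2m in the MHC list. C4b, the complement component used as the lead marker of that state, was at 6.85, 4.77, 4.48 and 6.6 CPM in wild-type and at 8.4, 18.6 and 37.9 CPM in the lowest, median and highest 5xFAD library. The groups did not overlap, and the log2 change of 1.96 ± 0.30 (adjusted p = 0.00375) was called in every omission, as were those of B2m, the light chain of MHC class I (0.83 ± 0.14), and Cd63, a tetraspanin of late endosomes (0.61 ± 0.10). The fourth, H2-K1 (0.79 ± 0.18), was lost without any of the 4 wild-type libraries, 5xFAD vehicle 1 or 2 or 5xFAD MS1262 2 or 4 (adjusted p up to 0.132), and the close copies among the H2 genes make its count uncertain. Microglia and astrocytes also express these 4 genes, and the bulk counts do not assign them to a cell type. None of the 16 precursor genes was called by edgeR or DESeq2. At an unadjusted p below 0.05 in edgeR stood 2, beside 2686 of all 17693 tested genes. Of the 16, 14 had a positive log2 change, beside 9159 of all 17693. The median was 0.18, and the summed level of the list was 443 ± 48.8 CPM in wild-type and 500.4 ± 30.3 CPM in 5xFAD.

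Neuronal genes were described by list, beginning with interneurons. Of 21 tested interneuron genes 3 fell and none rose, with a median log2 change of -0.11, against 0.893% of all genes called lower. Sst, which encodes somatostatin, was at 182, 141, 121 and 103 CPM in wild-type and at 57.5, 65.9 and 98.1 CPM in the lowest, median and highest 5xFAD library. Every 5xFAD library was below every wild-type one, and the log2 change of -0.95 ± 0.16 (adjusted p = 0.00301) was called in all 12 omissions, with an adjusted p of at most 0.0143. By arm it was -0.81 for 5xFAD given vehicle (adjusted p = 0.0306) and -1.11 for 5xFAD given MS1262 (adjusted p = 0.0048), both against the same wild-type libraries.

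The start of Sst holds the textbook cyclic AMP response element, TGACGTCA, which is shown here in capitals because it is the element through which this gene is known to answer neuronal activity. The 250 bases before its start in RefSeq's GRCm38.p6 table lie on the minus strand at chr16:23890845-23891094. The letters, which are their own reverse complement, were present in the same window of 1.77% of 27025 genes. No value here bears on whether the element was bound.
Sst: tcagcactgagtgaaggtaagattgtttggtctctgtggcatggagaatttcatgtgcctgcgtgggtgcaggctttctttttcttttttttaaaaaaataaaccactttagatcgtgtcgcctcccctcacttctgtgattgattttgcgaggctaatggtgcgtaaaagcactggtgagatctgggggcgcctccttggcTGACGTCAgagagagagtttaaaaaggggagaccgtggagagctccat

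Npy, the neuropeptide Y of another and partly shared interneuron class, was at 93.3, 76.1, 122 and 69.2 CPM in wild-type and at 51.1, 59.0 and 72.0 CPM in the lowest, median and highest 5xFAD library. Its groups overlapped (log2 -0.56 ± 0.14, adjusted p = 0.0405), and the call was lost without wild-type 1 or 3, 5xFAD vehicle 1 or any of the 5xFAD MS1262 libraries, with an adjusted p of up to 0.161. Crhbp, which binds corticotropin-releasing hormone and is made by somatostatin cells, did not overlap, at 29.5 to 36.2 CPM against 19.0 to 27.7 CPM. Its log2 change was -0.46 ± 0.11 (adjusted p = 0.0383), lost without any of the 4 wild-type libraries, 5xFAD vehicle 2 or 5xFAD MS1262 2, 3 or 4 (adjusted p up to 0.131). Neither gene was called with vehicle alone, where Npy stood at -0.40 (adjusted p = 0.219) and Crhbp at -0.33 (adjusted p = 0.21). With MS1262, against the same wild-type libraries, both were called, Npy at -0.73 (adjusted p = 0.0201) and Crhbp at -0.61 (adjusted p = 0.0166). MS1262 against vehicle called neither. The general GABAergic markers Gad1, Gad2 and Slc32a1 had log2 changes of 0.04, -0.06 and -0.21, Pvalb one of -0.04 and Vip one of -0.06, and none of these passed. The list held 1 called gene, Sst, without wild-type 1 or 3 or 5xFAD MS1262 2, 3 or 4. The summed level of the list ranged from 1721 to 1837 CPM in wild-type and from 1439 to 1734 CPM in 5xFAD.

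In the excitatory and synaptic lists the counts stood beside 2.49% of all tested genes called. For an unadjusted p below 0.05 the background was 2686 of 17693 genes, and for DESeq2 calls it was 4.98%. Of 23 markers of excitatory subfields 1 was called: Iyd, an iodotyrosine deiodinase, rose from 5.83 ± 1.5 to 9.95 ± 1.16 CPM without overlap (log2 0.77 ± 0.16, adjusted p = 0.0205). Of 20 presynaptic genes 1 was called: Bsn, the active-zone scaffold bassoon, went from 56.2 ± 9.21 to 86.4 ± 13.2 CPM with overlap (log2 0.62 ± 0.13, adjusted p = 0.0185). Both calls were lost without wild-type 2, 3 or 4, with an adjusted p of up to 0.0787 for Iyd and 0.0712 for Bsn, and neither gene was called on the TPM scale. Of 28 postsynaptic glutamate genes Shank2, a scaffold of the postsynaptic density, was called (log2 0.45 ± 0.11, adjusted p = 0.0488), and the call was lost in 11 of the 12 omissions, all but that of 5xFAD vehicle 3, with an adjusted p of up to 0.167. None of 17 genes of GABA synapses, 26 potassium channel genes and 16 genes of secretory granules and peptides was called in edgeR, where 3, 4 and 3 were at an unadjusted p below 0.05; DESeq2 called 1, 0 and 1. The granule protein Chga (log2 -0.55 ± 0.14, adjusted p = 0.0525) was called without 5xFAD vehicle 3 or 5xFAD MS1262 1.

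In the axon and cytoskeleton list 1 of 26 tested genes rose and 2 fell. Clasp2, which binds the growing ends of microtubules, was at 156, 139, 156 and 164 CPM in wild-type and at 59.2, 64.1 and 71.4 CPM in the lowest, median and highest 5xFAD library. The separation was wide, with a log2 change of -1.22 ± 0.07 (adjusted p = 7.94e-08), and it was called in every omission. Mapt, which encodes the microtubule protein tau, was at 78.7, 87.3, 77.0 and 91.8 CPM in wild-type and at 105, 111 and 166 CPM in the lowest, median and highest 5xFAD library. Its rise (log2 0.52 ± 0.12, adjusted p = 0.0328) had no overlap, but the call was lost without any of the 4 wild-type libraries (adjusted p up to 0.105) and on the TPM scale. Stmn3, a relative of stathmin that frees tubulin, had overlapping groups (log2 -0.62 ± 0.16, adjusted p = 0.0452) and was called in 2 of the 12 omissions, those of 5xFAD vehicle 3 and 5xFAD vehicle 4.

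Immediate early genes, the transcription factors and effectors induced by neuronal firing, gave no call among 20 tested in edgeR or DESeq2. At an unadjusted p below 0.05 in edgeR stood 5, all of them lower, beside 2686 of all 17693 tested genes. The median log2 change was -0.51, and 18 of 20 were negative, while 9159 of all 17693 were positive. The median was -0.167 without wild-type 3, whose summed level was the highest, and -0.645 to -0.429 in the other omissions. Fos, Arc and Egr1 had log2 changes of -1.17, -0.96 and -0.43. The summed level of the whole list spread widely in wild-type, from 302 to 696 CPM, and ranged from 286 to 440 CPM in 5xFAD, so the groups overlapped. Without 5xFAD vehicle 4, Arc was called lower.

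**Figure D4:**
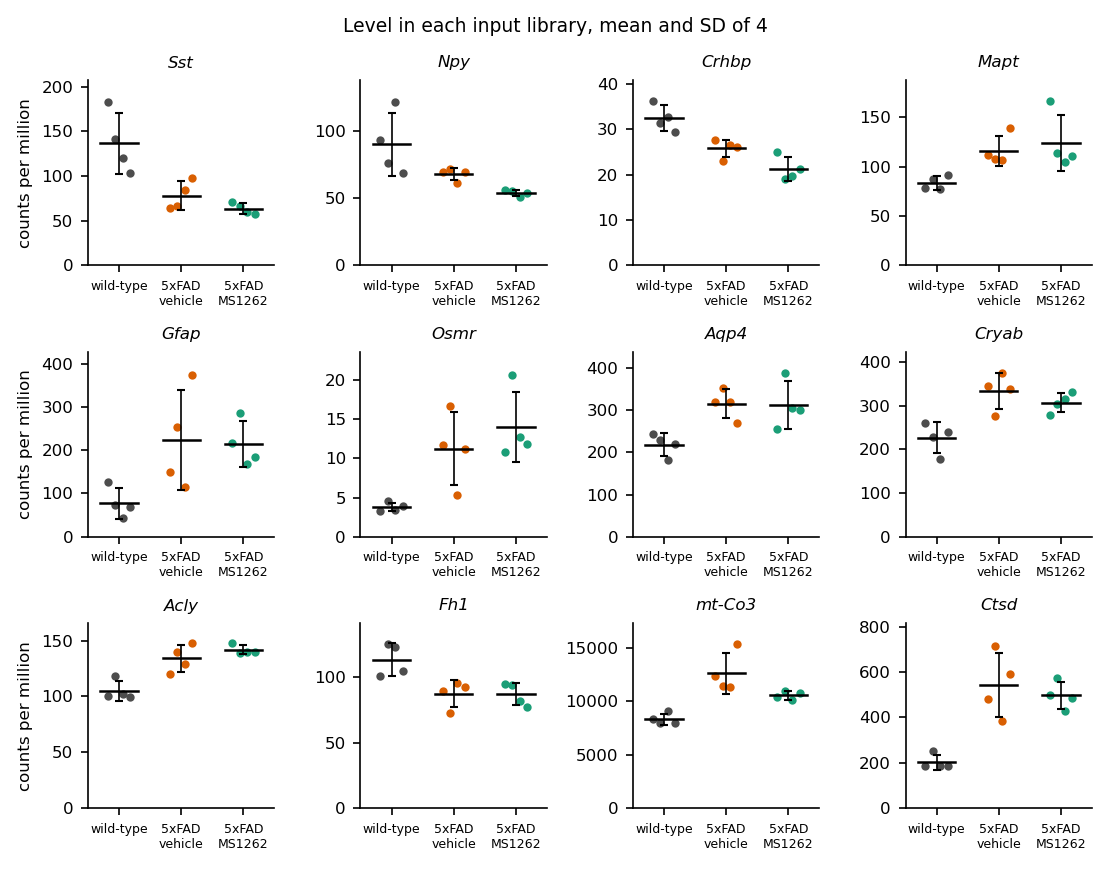
Level in CPM (vertical axes, from 0) of 12 genes in each wild-type, 5xFAD vehicle and 5xFAD MS1262 input library; points are libraries, horizontal lines the mean and bars the SD of 4. Sst, Crhbp and Fh1 lie below the wild-type libraries in all 8 5xFAD libraries, Npy overlaps, and Osmr, Mapt, Aqp4, Cryab, Acly, mt-Co3 and Ctsd lie above the wild-type libraries in all 8 5xFAD libraries.

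For energy metabolism the same 2.49% of all tested genes called is the background. For an unadjusted p below 0.05 it is 2686 of 17693 genes, and for DESeq2 calls 4.98%. None of 21 glycolysis genes, 24 genes of fatty acid oxidation and 47 nuclear-encoded subunits of oxidative phosphorylation was called in edgeR, where 4, 3 and 6 were at an unadjusted p below 0.05; DESeq2 called 0, 1 and 3. Of 28 genes of the TCA cycle 1 fell. That gene was Fh1, fumarase, at 101, 125, 123 and 104 CPM in wild-type and at 72.2, 91.0 and 95 CPM in the lowest, median and highest 5xFAD library. The groups did not overlap (log2 -0.38 ± 0.09, adjusted p = 0.0404), and the call was lost without wild-type 2, 3 or 4, 5xFAD vehicle 1 or 2 or 5xFAD MS1262 2, 3 or 4, with an adjusted p of up to 0.152. Without 5xFAD vehicle 4 the list held 3 called falls. In the nuclear-encoded oxidative phosphorylation list 37 of 47 log2 changes were negative, with a median of -0.08, while 9159 of all 17693 were positive. Its smallest p belonged to Ndufv1 and Ndufs7, core subunits of complex I, at -0.55 ± 0.16 and -0.56 ± 0.16 (adjusted p = 0.0845 and 0.0899), and both were called without 5xFAD vehicle 4.

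Of the 15 mitochondrially encoded genes tested, all 15 log2 changes were positive, with a median of 0.29, and 1 was called. mt-Co3, a subunit of cytochrome c oxidase, was at 8297, 7995, 9062 and 7941 CPM in wild-type and at 10061, 11128 and 15337 CPM in the lowest, median and highest 5xFAD library, without overlap. Its log2 change was 0.47 ± 0.10 (adjusted p = 0.0234), and the call was lost without wild-type 1, 2 or 4 (adjusted p up to 0.0746). By arm it was 0.60 with vehicle (adjusted p = 0.00817) and 0.34 with MS1262 (adjusted p = 0.127), against the same wild-type libraries. With vehicle 5 of the 15 genes were called and the median was 0.383, and with MS1262 none was called in edgeR and the median was 0.211. Between MS1262 and vehicle no gene was called. DESeq2 called 6 of the genes with the arms pooled, and the fit with a replicate block none. The number of these genes called was 0 without wild-type 1, 2 or 4, 5 without 5xFAD vehicle 4, 3 without 5xFAD vehicle 3 and 2 without wild-type 3, 5xFAD MS1262 1 or 5xFAD MS1262 3.

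As a share of each library, the mitochondrially encoded genes took 10.8%, 10.0%, 11.8% and 9.99% of counts in wild-type and from 12.25% to 16.7% in 5xFAD. The lowest 5xFAD library was above the highest wild-type one. The means were 10.7 ± 0.855% (SD, n = 4) and 13.3 ± 1.45% (n = 8), a difference of 2.68 points, and a 2-sided exact permutation test over the 495 assignments of libraries gave p = 0.00202, the smallest this design allows. Left out in turn, the libraries gave differences of 2.2 to 3.06 points and exact p of 0.00303 to 0.0242. The 5xFAD vehicle 4 library was the highest, at 16.7%, and without it the difference was 2.2 points.

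Among lipid genes the called changes were upward and below 2-fold. For the cholesterol, fatty acid synthesis and lipoprotein lists the background was 1.6% of all tested genes called higher. A single call in a list is a value of that gene and not of the list. In the cholesterol synthesis list 3 of 24 tested genes were called higher and none lower. The median was 0.26, and 21 had positive log2 changes, beside 9159 of all 17693. At an unadjusted p below 0.05 stood 14 higher and 1 lower, beside 2686 of 17693 genes, and DESeq2 called 8, beside 4.98%. Fdps, farnesyl diphosphate synthase, and Hmgcs1, the enzyme before the rate-limiting step, had log2 changes of 0.49 ± 0.11 and 0.44 ± 0.10 with overlapping groups (adjusted p = 0.0235 and 0.035). Fdps was at 57.5 to 67.4 CPM in wild-type and at 61.7, 90.4 and 99.0 CPM in the lowest, median and highest 5xFAD library. In both genes 5xFAD vehicle 3, the library with the highest Ttr, was the 1 5xFAD library that did not exceed all wild-type libraries. The call of Fdps was lost without wild-type 1, 3 or 4 (adjusted p up to 0.0856). That of Hmgcs1 was lost without any of the 4 wild-type libraries, 5xFAD vehicle 1 or 2 or 5xFAD MS1262 2, 3 or 4 (adjusted p up to 0.114). Neither gene was called in an arm alone: the log2 change was 0.46 with vehicle (adjusted p = 0.1) and 0.53 with MS1262 (adjusted p = 0.0562) for Fdps, and 0.39 (adjusted p = 0.141) and 0.48 (adjusted p = 0.0653) for Hmgcs1, against the same wild-type libraries. The count of the list was 0 without wild-type 1, 3 or 4, 1 without 5xFAD MS1262 2, 7 without 5xFAD vehicle 3 and 0 on the TPM scale.

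Acly, which makes the acetyl-CoA that feeds both fatty acids and cholesterol, was the single call among 13 genes of fatty acid synthesis, all 13 of which had positive log2 changes; 3 were called without wild-type 1 and 2 without 5xFAD vehicle 4 or 5xFAD MS1262 3. It was at 100.0, 118, 102 and 99.5 CPM in wild-type and at 120.4, 139.8 and 148 CPM in the lowest, median and highest 5xFAD library. The rise of 0.39 ± 0.08 on the log2 scale (adjusted p = 0.0116) had no overlap and was lost without wild-type 4 alone (adjusted p = 0.0545) and on the TPM scale.

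Of 21 genes of lipoproteins and lipid transport 6 rose and none fell. Apoe, the main lipid carrier of the brain, was at 100.0, 94.8, 84.6 and 77.7 CPM in wild-type and at 111, 131 and 161 CPM in the lowest, median and highest 5xFAD library. The groups did not overlap, and the log2 change of 0.56 ± 0.10 (adjusted p = 0.00952) was called in all 12 omissions. So was that of Npc2, which hands cholesterol out of the lysosome, at 0.58 ± 0.08 (adjusted p = 0.00178). Clu, another secreted lipoprotein, and Npc1, the membrane partner of Npc2, rose by 0.45 ± 0.10 and 0.45 ± 0.09 without overlap, and both calls were lost without wild-type 3 or 4 (adjusted p up to 0.0776 and 0.06). The cholesterol exporter Abca1 (0.44) and the lipid droplet protein Plin2 (0.52) made up the 6; the count was 2 without wild-type 3, 2 without both high-Ttr libraries and 2 on the TPM scale. By arm, against the same wild-type libraries, 5 genes of the list were called higher with vehicle and 1, Npc2, with MS1262. Apoe stood at 0.61 with vehicle (adjusted p = 0.02) and at 0.51 with MS1262 (adjusted p = 0.0545). MS1262 against vehicle called no gene.

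Genes of protein synthesis and turnover were read against the same background of 2.49% called. Of 79 cytosolic ribosomal protein genes 1 rose and 1 fell. Rpl29 was at 59.0 to 65.7 CPM in wild-type and at 57.8, 106 and 112 CPM in the lowest, median and highest 5xFAD library; the lowest was 5xFAD MS1262 3 and the other 7 lay above wild-type (log2 0.70 ± 0.13, adjusted p = 0.0135). Rplp1 had a log2 change of -0.50 ± 0.12 (adjusted p = 0.0272). The call of Rpl29 was lost without wild-type 4, and that of Rplp1 without wild-type 1, 2 or 3, 5xFAD vehicle 1 or 2 or 5xFAD MS1262 4 (adjusted p up to 0.107). Both genes have many processed copies that could share their reads. None of 31 proteasome genes was called in edgeR, where 7, all lower, were at an unadjusted p below 0.05. DESeq2 called 1. Over all tested genes 2686 of 17693 were at such a p, DESeq2 called 4.98%, and 9159 log2 changes were positive. Of the 31 log2 changes 28 were negative, with a median of -0.10; the 2 with the smallest p, Psma3 and Psmd6, stood at -0.29 and -0.27 (adjusted p = 0.098 for both), and Psma3 was called without 5xFAD MS1262 2. None of 14 heat shock genes was called by edgeR or DESeq2 (1 at an unadjusted p below 0.05 in edgeR). Of 23 genes of endoplasmic reticulum stress Atf3 rose (log2 1.78 ± 0.39, adjusted p = 0.0292) and Asns fell (log2 -0.30 ± 0.07, adjusted p = 0.0244), both lost without wild-type 2, 3 or 4, and Atf3 also without wild-type 1, 5xFAD vehicle 1 or 5xFAD MS1262 3.

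The largest falls chosen by the same rule lay, Clasp2 aside, outside these lists. Since the labels name no background strain, a difference of strain between the groups and the transgenes cannot be told apart in them, nor in the rises. Tmem242, a membrane protein of mitochondria (chr17:5410864-5440260 on GRCm38.p6), was at 154, 90.0, 90.0 and 79.1 CPM in wild-type and at 9.14, 10.6 and 11.9 CPM in the lowest, median and highest 5xFAD library. Its log2 change was -3.28 ± 0.15 (adjusted p = 4.7e-09). Lsm12, an Sm-like RNA-associated protein (chr11:102162497-102186268), went from 50.1 ± 8.05 to 5.88 ± 1.06 CPM (log2 -3.09 ± 0.15, adjusted p = 4.7e-09). In both genes the groups were far apart, with no overlap.

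Gt(ROSA)26Sor, the noncoding RNA of the ROSA26 locus, was at 148, 312, 189 and 148 CPM in wild-type and at 25.0 to 45.4 CPM in 5xFAD (log2 -2.70 ± 0.19, adjusted p = 8.02e-07). Mir124-2hg, a host transcript of the neuronal microRNA miR-124 (chr3:17789921-17800071), was at 64.0, 63.6, 143 and 124 CPM in wild-type and at 20.9, 26.5 and 35.0 CPM in the lowest, median and highest 5xFAD library. The groups did not overlap (log2 -1.82 ± 0.21, adjusted p = 0.000131). Dynlt1b, a dynein light chain with close copies that make its count uncertain (-1.29), Clasp2 (-1.22), Lrrc49 (-1.08) and the prefoldin subunit Pfdn6 (-1.01) completed the 8, all of them called in every omission. Predicted genes and pseudogenes were passed over in this choice, although some fell further. Etv4, which was not among the 8 that the rule gave, also fell further (log2 -4.96, adjusted p = 0.0016) and was called in all 12 omissions. Gm10259, a pseudogene chosen here after its values were seen, was at 17.6 ± 1.26 CPM in wild-type and at 0 in all 8 5xFAD libraries; reads of such copies can be split with their parent genes, so these counts are uncertain.

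Below 2-fold, the 8 genes each way with the smallest p were picked out under the same conditions. Upward these were Gna13, a G protein alpha subunit (log2 0.76 ± 0.09), Pbxip1, which binds PBX factors (0.83 ± 0.10), Adhfe1, a mitochondrial hydroxyacid transhydrogenase (0.83 ± 0.10), Anxa4, an annexin (0.91 ± 0.11), the tetraspanin Cd9 (0.92 ± 0.12), Npc2, Cx3cr1 and the cathepsin Ctsc (0.82 ± 0.12). Gna13 was at 56.1, 57.0, 61.2 and 77.9 CPM in wild-type and at 98.6, 106 and 117 CPM in the lowest, median and highest 5xFAD library. Adhfe1 was at 28.0 to 35.8 CPM in wild-type and 45.6 to 64.7 CPM in 5xFAD. The adjusted p ran from 0.000333 for Gna13 to 0.00268 for Ctsc.

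Downward they were the noncoding RNA Pantr1 next to Pou3f3 (log2 -0.70 ± 0.11), Cdadc1 (-0.49 ± 0.08), the ubiquitin ligase adaptor Klhl7 (-0.53 ± 0.08), the tetraspanin Tspan12 (-0.72 ± 0.12), Sst, the guanine nucleotide synthase Gmps (-0.49 ± 0.08), the V-ATPase assembly factor Tmem199 (-0.67 ± 0.11) and Lonrf2 (-0.43 ± 0.07). Tspan12 was at 335, 263, 266 and 296 CPM in wild-type and at 148, 169.8 and 228 CPM in the lowest, median and highest 5xFAD library. Gmps was at 299 to 371 CPM in wild-type and at 211 to 274 CPM in 5xFAD. All 16 were without overlap and called in every omission, as the rule for choosing them required.

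The gain from pooling both arms was read from each arm's own fit, which shared 1 estimate of spread over the 3 groups. Against wild-type, 5xFAD given vehicle had 278 called genes (1.57%; 187 higher and 91 lower) and 5xFAD given MS1262 had 230 (1.3%; 161 higher and 69 lower). These comparisons use the same 4 wild-type libraries. MS1262 against vehicle within 5xFAD gave 0 called genes in edgeR, with 1003 at an unadjusted p below 0.05, and 0 to 2 called when libraries were left out.

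A further 12 genes were chosen by the smallest p among those called with 8 libraries and in neither arm alone. Upward they were Aqp4 (0.53 with vehicle, 0.51 with MS1262), Cacul1, a protein with a cullin domain (0.43 and 0.47), the microglial growth factor receptor Csf1r (0.82 and 0.88), the phospholipase D family member Pld4 (0.88 and 0.92), the anion transporter Slco2b1 (0.97 and 1.04) and the glucose-responsive arrestin Txnip (0.53 and 0.51). Their adjusted p was between 0.0164 and 0.0205 with the arms pooled, and between 0.0505 and 0.084 in each arm. Every one of the 6 lost its call in at least 2 omissions of a wild-type library, with an adjusted p of up to 0.0908. Csf1r and Pld4 overlapped between genotypes, in both cases through 5xFAD vehicle 3.

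Downward the same rule gave Cdh10, a neuronal cadherin (log2 -0.35 with vehicle and -0.39 with MS1262), Dync1i1, an intermediate chain of neuronal dynein (-0.38 and -0.37), Micu3, the brain form of the mitochondrial calcium uptake regulators (-0.66 and -0.63), Pwp1 (-0.40 and -0.45), the RNA-binding protein Rbmx (-0.48 and -0.53) and the transmembrane protein Tmeff2 (-0.36 and -0.36). Micu3 was at 194, 173, 249 and 139 CPM in wild-type and at 89.0, 124 and 142 CPM in the lowest, median and highest 5xFAD library, so the highest 5xFAD library was above the lowest wild-type one. Dync1i1 and Cdh10 also overlapped, while Pwp1, Rbmx and Tmeff2 did not. All 6 calls were lost in 2 or 3 omissions of a wild-type library, with an adjusted p of up to 0.108.

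**Figure D5:**
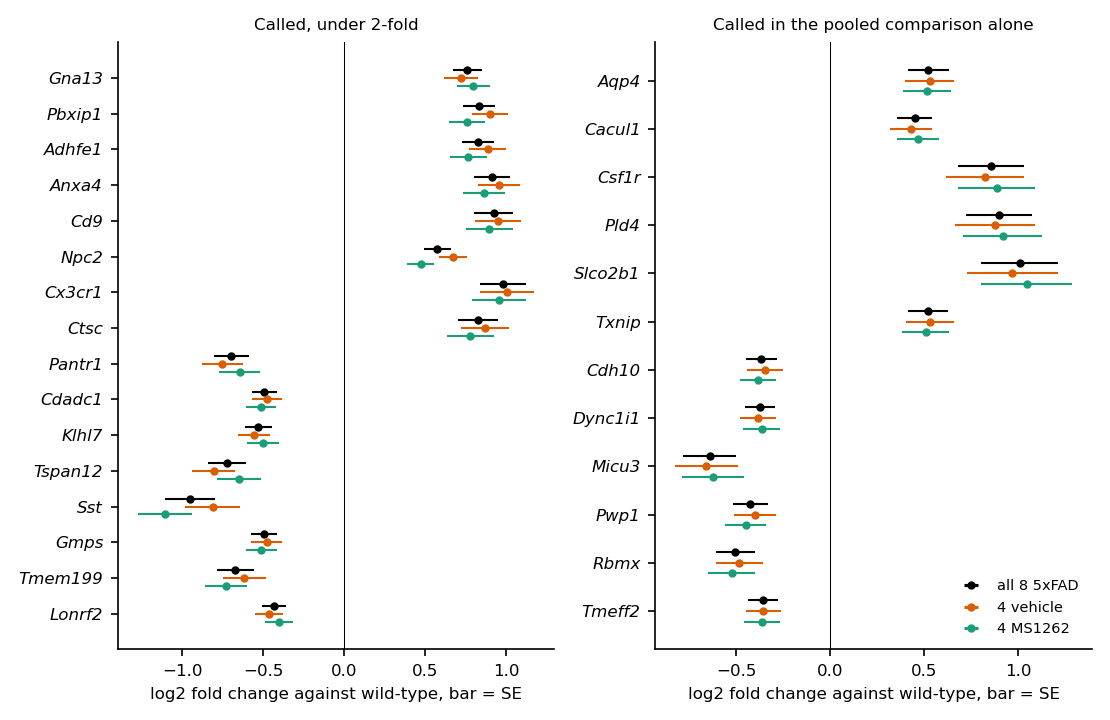
Log2 fold change against wild-type (horizontal axes, bars are the SE) for 16 called genes below 2-fold (left) and 12 genes called only with the arms pooled (right), shown for all 8 5xFAD libraries, the 4 given vehicle and the 4 given MS1262. Sst, for example, stood at -0.81 with vehicle and -1.11 with MS1262; all comparisons use the same wild-type libraries.

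Markers of other cells were checked for each list in full. In edgeR none was called among 17 endothelial, 12 mural, 14 meningeal and fibroblast, 10 choroid plexus, 10 ependymal, 5 red blood cell, 3 T cell, 8 border macrophage genes and 1 neutrophil gene tested. At an unadjusted p below 0.05 stood 4 endothelial, 1 mural, 1 meningeal and 2 T cell genes and none of the rest. DESeq2 called 1 endothelial, 1 mural, 1 choroid plexus and 1 T cell gene. Over all tested genes 2686 of 17693 were at such a p in edgeR, where 2.49% were called, and DESeq2 called 4.98%. Endothelial markers summed to 105 to 195 CPM in wild-type and 94.4 to 174 CPM in 5xFAD, and fibroblast markers to 425 to 686 and 384 to 1182 CPM. Border macrophage markers summed to 8.39 to 19.4 CPM in wild-type and 11.98 to 33.0 CPM in 5xFAD, with 5xFAD vehicle 1, 3 and 4 the highest; their part in the microglial calls was not tested. Of the border macrophage markers F13a1 and Folr2 had the smallest p (adjusted p = 0.414 and 0.365). With vehicle alone against the same wild-type libraries F13a1, a border macrophage transglutaminase subunit (log2 1.32, adjusted p = 0.0479), and Anpep, an aminopeptidase of pericytes (log2 2.06, adjusted p = 0.0379), were called, and with MS1262 they stood at -0.13 and 1.03 (adjusted p = 0.902 and 0.313). The median of the fibroblast list was 0.838 with vehicle and -0.161 with MS1262. Of 18 proliferation genes 2 rose, Hjurp and Cdk1, the mitotic kinase; Cdk1 was low, at 0.666 ± 0.153 CPM in wild-type and 1.57 ± 0.341 CPM in 5xFAD, and its call was lost without wild-type 1, 2 or 4, 5xFAD vehicle 1 or 5xFAD vehicle 2 (adjusted p up to 0.0906).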

How the data were processed

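The 12 input libraries were oligo(dT)-selected hippocampal mRNA, per the labels' protocols. The authors deposited estimated counts per gene symbol, not normalized, and TPM per gene. The submitters' processing notes name Trimmomatic 0.32, STAR 2.7.6a, Salmon 1.4.0 and the build GRCm38 without giving roles or order. The table is taken to hold gene-level sums over transcripts, and strand handling is not given in the sources used here.

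Estimated counts were rounded and scaled by TMM in edgeR 4.0.16 (R 4.3.3). Genes were kept by filterByExpr with a minimum count of 10, which left 17693 of 55291 rows, and tested with the quasi-likelihood test, 8 5xFAD libraries against 4 wild-type ones. Genes at a Benjamini-Hochberg adjusted p below 0.05 were called. The arms were tested in a 3-group fit. CPM is TMM-scaled, and all ± values beside a log2 change are SE. Alternatives were the 3-group design, a replicate block, DESeq2 1.42.0, other scalings, no filter, limma 3.58.1 on log2(TPM + 1) and log2(TPM + 0.1) computed from the deposited TPM, each library left out, and, chosen after seeing the data, both high-Ttr libraries left out. Scripts were tested on simulated data.

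The labels call the libraries biological replicates without naming animals, so p-values measure the spread between these libraries. Members and gene lists were chosen with earlier results of these data known. Named genes were the 8 largest and the 8 smallest-p changes below 2-fold each way, with no overlap and called in all 12 omissions; up to 6 each way called with the arms pooled and in neither arm; up to 4 called per list, or 2 with the smallest p where none was called; and App, Thy1, Ehmt2, Gfap, Xist and the Y-linked genes. Other list members, such as Vim, Arc and Mbp, were named after their values were seen. Counting precision follows from 20.7 to 43.2 M estimated counts per library. Gene coordinates and promoters are RefSeq's, matched by symbol (38990 rows). The m6A immunoprecipitates and peak lists were not used, and some genes are not reported here.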

Additional observations from a re-analysis of the deposited data

Results flagged for a closer look

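A single library stood far from the rest of its group, by Dixon's ratio at the 95% level, in 25 of 264 sets of values tested, and chance alone gives about 1 in 20. Of these 9 were in 5xFAD vehicle 3. Values are in log2 CPM. Library 5xFAD vehicle 3 was the lowest of its group for Cd52 at 1.41, Csf1r at 3.75, Ctss at 7.74, Fdps at 5.95, Shank2 at 4.70 and Xist at 0.44, and the highest of its group for Cldn2 at 5.37, Kcnj13 at 7.89 and Trac at 1.43. Library 5xFAD vehicle 1 was the highest of its group for Asns at 7.71 and Cxcl10 at 0.66. Library 5xFAD vehicle 4 was the highest of its group for Rplp1 at 7.44. Library 5xFAD MS1262 1 was the lowest of its group for Folr2 at -2.20, Hbb-bt at -1.24 and Ifitm3 at 3.07, and the highest of its group for Hjurp at 4.17. Library 5xFAD MS1262 3 was the lowest of its group for Rpl29 at 5.85. Wild-type 1 was the highest of its group for Mettl14 at 4.00. Wild-type 2 was the lowest of its group for Anxa4 at 3.46, Cd74 at 1.84 and Lonrf2 at 7.30, and the highest of its group for Acly at 6.88 and Ctsd at 7.98. Wild-type 4 was the lowest of its group for C1qc at 1.30. The mitochondrial share of 5xFAD vehicle 4 was 16.7%, against 12.25% to 13.9% in the other 5xFAD libraries.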

How the results depend on the processing

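Against 441 called genes (283 higher, 158 lower), DESeq2 called 864 (529 higher, 335 lower), limma on log2(TPM + 1) called 129 higher and 321 lower and on log2(TPM + 0.1) 152 higher and 313 lower. Leaving out each library gave 227 to 571 called genes, 151 to 377 higher and 76 to 267 lower; the cause was not tested. The 3-group design, other scalings and the fit without a filter stayed within 1.5 times of each count. The mitochondrial share kept its direction and its side of the threshold in all 14 alternatives (2.2 to 3.06 points over omissions). Of the values of single named genes, 2462 kept direction and side of the threshold, 251 lost and 25 gained a call, and 12, of genes not called, reversed: App to 0.0688 without both high-Ttr libraries and from -0.0586 to 0.0586 over omissions, Atf7ip to -0.0878 and -0.095 on the TPM scale, Kcnj13 from -0.487 without 5xFAD vehicle 3 to 2.94, and Xist to -0.0601 and -0.316 on the TPM scale and from -0.0556 to 0.252 over omissions.

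With a replicate block, 293 genes were called (221 higher, 72 lower), 271 of them among the 441, and Xist stood at -0.0231. Deviations of same-numbered libraries from their group means correlated at -0.0931 to 0.0538, and 1 of 12 libraries correlated best with its own number. These correlations show no pairing by number over the genes as a whole. They cannot settle whether a shared factor that touches few genes links same-numbered libraries.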

Other observations

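Some gene families were grouped by name after their values were seen, and are given as values with no test, beside 1.6% of all tested genes called higher and 0.893% lower. Over all tested genes 2686 of 17693 were at an unadjusted p below 0.05, and 9159 log2 changes were positive. Of 78 tested genes of the mitochondrial ribosome, 6 were called lower and none higher (Mrpl19, Mrpl2, Mrpl36, Mrpl53, Mrps7 and Mrps9). The median log2 change was -0.15, 63 of the 78 were negative, and 1 to 9 were called over the omissions of single libraries. Of 23 genes of mitochondrial protein import 2 were called lower, Timm10b and Timm23, in every omission. Of 12 cathepsin genes 8 were called higher in every omission, with a median of 0.78. Of 5 Fc receptor genes 4 were called higher (0 to 4 over omissions), of 29 cytokine receptor genes 6 (2 to 7) and of 8 Toll-like receptor genes 2 (1 to 4). In the other 6 families looked at, the counts higher and lower were 0 and 2 of 6 prefoldin genes, 3 and 1 of 42 Trim genes, 1 and 1 of 18 V-ATPase genes, 6 and 1 of 260 solute carriers, 1 and 3 of 343 zinc finger genes, and 0 and 0 of 17 histone demethylases in edgeR, where Kdm7a and Kdm4d were at an unadjusted p below 0.05.

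Of 270 called higher genes with a position, 118 (43.7%) had another gene called higher within 1 Mb, against 27.9% of all tested genes. Of 153 called lower genes 26 (17.0%) had another called lower, against 17.1% of all tested genes. That share does not weigh the size of the falls. Among the 26, picked after their values were seen, Rnd2 (log2 -0.61), Etv4 (-4.96) and Lsm12 (-3.09) were neighbours on chr11. Dynlt1b (-1.29) and Tmem181b-ps (-1.88) were neighbours on chr17. Others of the 26 fell less, such as Mrps9 (-0.32) and Zfr (-0.34), and the cause was not tested.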
